A study of Homo sapiens with 6 samples.

Results

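The genes described are the non-clustered members of the cadherin superfamily: the cadherins with a plain CDH number, the PCDH protocadherins outside the alpha, beta and gamma clusters, the 4 FAT genes, the 2 Dachsous genes (DCHS1 and DCHS2) and the 3 CELSR genes. They were picked by a rule on gene symbols that uses no measured value, though earlier results of these data were known. They number 44 of the 19923 protein-coding genes in the count tables: 23 CDH, 12 PCDH, 4 FAT, 2 DCHS and 3 CELSR genes. PCDH11Y was left out by the same rule. Their mRNA levels come from poly(A)-selected RNA-seq libraries of Kelly, a human neuroblastoma cell line with amplified MYCN whose genotype is labelled WT. In 3 libraries the cells had received control siRNA (siControl), and in 3 others siRNA to METTL3 (siMETTL3), each by lipofectamine transfection and for 72 hours. METTL3 is the methyltransferase that places N6-methyladenosine (m6A) on mRNA, and the comparison asks how its depletion alters these cells. All 6 libraries come from 1 cell line, and nothing in the labels says whether replicates were separate cultures, so p-values measure only the spread between these libraries.

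Cadherins are single-pass membrane proteins whose extracellular repeats bind calcium and hold neighbouring cells together, mostly by pairing with the same cadherin on the next cell. Classical cadherins connect through catenins to actin, and in the nervous system type I and type II classical cadherins help neurons sort, migrate and choose synaptic partners. The delta protocadherins carry other cytoplasmic tails and act in axon growth and cell sorting. FAT and Dachsous are giant cadherins that bind each other across cell borders, and the CELSR proteins, which also span the membrane as adhesion G protein-coupled receptors, are core components of planar cell polarity, the alignment of cells within a tissue plane.

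The siControl libraries held 15430000 to 21526555 counts and the siMETTL3 libraries 20374737 to 21565013. METTL3 (chromosome 14, 21498133 to 21511342) was measured at 53.5, 52.8 and 56.2 CPM (the count scaled to a common library size) in the siControl libraries and at 32.99, 31.8 and 34.3 CPM in the siMETTL3 libraries, a log2 fold change of -0.71 (SE 0.070, edgeR FDR 4.68e-06). Its count includes reads over the overlapping gene TOX4. Of the 8 sympathetic neuroblastoma markers, all were expressed, and their summed level was 4916 to 5443 CPM in siControl and 7435 to 7859 CPM in siMETTL3, most of it MYCN, which averaged 3021 CPM and 4638 CPM. Marker sums of Schwann cells, epithelium, endothelium and leukocytes did not exceed 10.4 CPM in any library, with KRT5 at 0 throughout. The fibroblast list summed to 85.3 to 99.2 CPM in siControl and 87.2 to 93.8 CPM in siMETTL3, of which PDGFRB made up 84.8 CPM and 82.9 CPM on average. In siControl replicate 3, the shallowest library, genes spanning at least 300 kb stood higher than in the other siControl libraries: their median log2 deviation from the siControl mean was 0.11, against -0.050 and -0.063. Its counts also differed more widely from the other controls. The chi-square per degree of freedom was 16.9 against siControl replicate 1 and 9.23 against replicate 2, and 5.74 between those. For the 11 tested members of at least 300 kb, and for some shorter ones, the log2 fold change without siControl replicate 3 is given as well.

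Upstream sequence shows how differently these genes begin. The 250 bases before the RefSeq start site (build GRCh38.p14) are printed for 4 members, 5′ to 3′ on the gene's strand, with every CG dinucleotide in capitals. PCDH7 had the largest fall of the family, and PCDH17 and PCDH19 are delta-2 protocadherins that moved in opposite directions. CELSR2 rose. The windows are chr4:30720119-30720368 (plus strand), chr13:57631494-57631743 (plus), chrX:100410274-100410523 (minus) and chr1:109249289-109249538 (plus).
PCDH7: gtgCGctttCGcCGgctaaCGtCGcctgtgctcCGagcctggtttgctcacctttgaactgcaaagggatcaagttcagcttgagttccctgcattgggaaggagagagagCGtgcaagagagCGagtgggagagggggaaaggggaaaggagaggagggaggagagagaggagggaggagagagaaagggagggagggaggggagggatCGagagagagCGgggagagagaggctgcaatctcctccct
PCDH17: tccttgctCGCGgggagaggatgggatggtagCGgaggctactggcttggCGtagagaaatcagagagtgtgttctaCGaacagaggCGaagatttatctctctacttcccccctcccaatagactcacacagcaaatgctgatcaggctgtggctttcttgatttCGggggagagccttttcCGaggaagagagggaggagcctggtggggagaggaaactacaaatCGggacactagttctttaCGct
PCDH19: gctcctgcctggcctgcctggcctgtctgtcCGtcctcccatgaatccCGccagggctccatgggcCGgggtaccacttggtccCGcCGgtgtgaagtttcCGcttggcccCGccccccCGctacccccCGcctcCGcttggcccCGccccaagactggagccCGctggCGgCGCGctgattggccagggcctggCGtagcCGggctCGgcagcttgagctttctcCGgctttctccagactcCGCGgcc
CELSR2: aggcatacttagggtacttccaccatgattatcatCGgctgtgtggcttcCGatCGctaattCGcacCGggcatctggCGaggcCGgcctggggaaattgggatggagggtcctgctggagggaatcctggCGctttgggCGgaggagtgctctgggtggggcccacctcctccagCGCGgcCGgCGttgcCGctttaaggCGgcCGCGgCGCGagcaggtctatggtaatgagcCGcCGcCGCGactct

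These windows hold 10 CG dinucleotides for PCDH7, 10 for PCDH17, 21 for PCDH19 and 23 for CELSR2. RefSeq start-site windows were found for 27 of the 44 members, 41 windows in all because some genes have several start sites. The median was 12 CG dinucleotides over the 11 windows of members that were lower and 10 over the 13 windows of members that were higher, against 19 over the 17323 windows of all tested genes. The medians of risers and fallers were thus both below that of all windows. They count windows rather than genes, and some windows lie at start sites inside the gene. For CDH23, which rose, the window before the gene's span held 34 CG dinucleotides, and those inside the span held 1 and 5. A median over genes was not taken. CACGTG, the letters bound by MYC and MYCN dimers, was in none of the 41 family windows and in 7.82% of the windows of tested genes. CAGGTG or its complement CACCTG, the E-box letters read by SNAI and ZEB repressors, was in 4 family windows and in 16.0% of the windows of tested genes. These 4 windows, of CDH4, CDH23, PCDH1 and PCDH15, all lie inside the gene's span, at start sites downstream of its beginning. The windows just before the spans of CDH23 and PCDH15 held neither. Each motif was searched on both strands, and the absence of the letters in 250 bases says nothing about the factors.

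After knockdown the family split into risers and fallers. Of the 44 members, 39 had enough counts to be tested, 22 (56.4%) passed a false discovery rate (FDR) of 0.05 in edgeR's quasi-likelihood test, and these were 11 higher and 11 lower genes. In the background of all 15311 tested genes, 37.8% passed in either direction, 18.6% were higher and 19.2% were lower. Many members are long, and the shares depend on gene span. Among all tested genes of 100 to 300 kb, 28.8% were higher and 14.7% lower, and from 300 kb on, 26.8% and 18.6%. In the family 28.2% were higher and 28.2% lower. With an offset for gene span, 37.5% of all calls were higher, against 49.2% without it (5786 calls), and the family then held 10 higher and 12 lower members. The median log2 fold change of the tested members was -0.086, against -0.0021 over all tested genes, but the median absolute log2 fold change was 0.46 against 0.21. At least 2-fold changes were found in 3 lower members (PCDH7, FAT4 and CDH8) and 2 higher members (CDH13 and CDH22), where 0.607% of all tested genes were that much lower and 2.74% that much higher. The 3 values of each group lay entirely apart in 23 of the 39 tested members, against 49.9% of all tested genes. Differences in shares between the family and all genes were not tested, and the 36 members with at least 10 counts in every library included all 22 that passed.

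**Figure D1:**
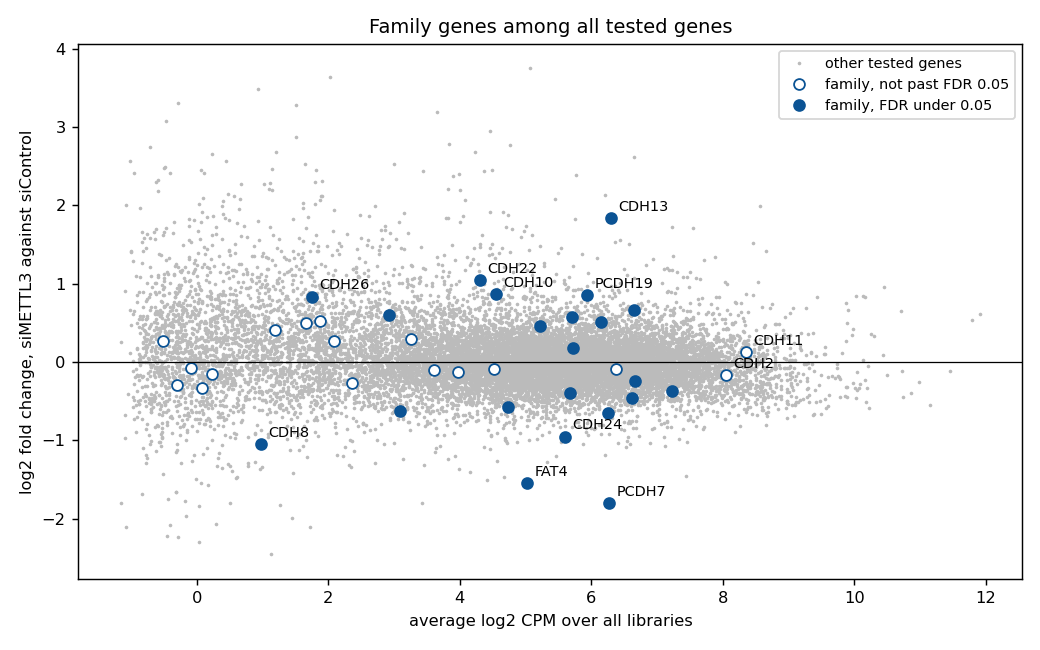
Log2 fold change (siMETTL3 against siControl, y axis) against average log2 CPM over the 6 libraries (x axis) for all tested genes in grey and the 39 tested family genes in blue, filled where the edgeR FDR is under 0.05. PCDH7 and FAT4 lie lowest and CDH13 highest among the family, at -1.80, -1.55 and 1.83, while the most abundant members CDH11 and CDH2 lie near 0.

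Among the type I classical cadherins, only CDH4 passed the test (25% of 4 tested members, against 37.8% of all tested genes). CDH4 (R-cadherin, a retinal and neural cadherin; chromosome 20, 61252261 to 61940617, plus strand) was measured at 86.9, 78.4 and 66.5 CPM in the siControl libraries and at 122, 129 and 118 CPM in the siMETTL3 libraries. Each siMETTL3 library exceeded each siControl library. CDH4 rose 1.59-fold, a log2 fold change of 0.67 (SE 0.084, edgeR FDR 5.26e-05), and 0.57 without siControl replicate 3.

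CDH2 (N-cadherin, the main cadherin of neural cells; chromosome 18, 27950966 to 28177130, minus strand) was measured at 257, 265 and 316 CPM in siControl and at 248, 237 and 259 CPM in siMETTL3. The groups overlapped, and siControl replicate 3 stood above the other 5 libraries. Its log2 fold change was -0.17 (95% interval -0.33 to -0.011, edgeR FDR 0.0875), which did not pass the threshold. With the gene span offset CDH2 did pass (log2 fold change -0.26, edgeR FDR 0.00399), and it also passed without siControl replicate 1 (log2 fold change -0.23, edgeR FDR 0.0132). Without siControl replicate 3 its log2 fold change was -0.075 (edgeR FDR 0.251). CDH1 (E-cadherin, the epithelial cadherin) had 8 to 27 counts per library and CDH3 (P-cadherin) 4 to 16, both far below CDH2, and neither passed (edgeR FDR 0.909 and 0.678).

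The type II classical cadherins, which mark neuronal subtypes, changed in both directions: of 11 tested members, 2 rose, 3 fell and 6 did not pass. These are 18.2% higher and 27.3% lower, against 18.6% and 19.2% of all tested genes, a difference that was not tested. CDH24 (chromosome 14, 23047062 to 23057538, minus strand) was measured at 62.2, 68.1 and 62.5 CPM in siControl and at 35.9, 31.0 and 32.9 CPM in siMETTL3. All siMETTL3 values lay far below the lowest siControl value, and the log2 fold change was -0.95 (SE 0.075, edgeR FDR 7.31e-07). CDH8, which labels subsets of projection neurons, was scarce, with 50, 48 and 46 counts in siControl and 26, 28 and 24 in siMETTL3. It fell by 1.05 on the log2 scale (SE 0.26, edgeR FDR 0.00619), and by 0.93 without siControl replicate 3. CDH20 fell by 0.63 on the log2 scale (edgeR FDR 0.00379), from 10.5, 9.26 and 11.4 CPM to 7.34, 5.70 and 7.11 CPM.

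CDH22 (chromosome 20, 46173739 to 46308498, minus strand) and CDH10 (chromosome 5, 24487100 to 24644978, minus strand), a pair of brain cadherins, rose. CDH22 went from 15.4, 12.4 and 10.1 CPM to 26.5, 27.9 and 24.5 CPM, a log2 fold change of 1.05 (SE 0.13, edgeR FDR 4.08e-05). CDH10 went from 14.4, 17.0 and 18.4 CPM to 30.4, 27.7 and 32.3 CPM, a log2 fold change of 0.87 (SE 0.10, edgeR FDR 2.98e-05). In both genes the siMETTL3 libraries were all higher than the siControl libraries, without overlap. For CDH22 siControl replicate 3 was the lowest library, and without it the log2 fold change was 0.92.

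CDH11 (OB-cadherin, a cadherin of mesenchymal and neural crest cells; chromosome 16, 64943753 to 65126112, minus strand) was the type II member with the most counts. It was measured at 301, 295 and 340 CPM in siControl and at 337, 339 and 346 CPM in siMETTL3. The third siControl library lay among the siMETTL3 values, and the log2 fold change of 0.13 (95% interval -0.004 to 0.26) did not pass (edgeR FDR 0.12). Without siControl replicate 3 it did (log2 fold change 0.19, edgeR FDR 0.00170). CDH12, the next most abundant type II member, had a log2 fold change of -0.095 (95% interval -0.24 to 0.052, edgeR FDR 0.2997), from a mean of 85.8 ± 7.36 CPM (SD, n = 3) to 80.2 ± 2.40 CPM. Its siControl replicate 3, at 94.2 CPM, was the highest library, and without it the log2 fold change was -0.025. CDH6, CDH7, CDH9 and CDH18 did not pass either, with edgeR FDRs of 0.255, 0.116, 0.684 and 0.613. For CDH18 the log2 fold change went from -0.097 to 0.056 without siControl replicate 3.

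The largest rise of the family was that of CDH13 (T-cadherin or H-cadherin; chromosome 16, 82626965 to 83800640, plus strand). Unlike classical cadherins, CDH13 has no transmembrane or cytoplasmic part and is held in the membrane by a glycosylphosphatidylinositol anchor. It also binds adiponectin. CDH13 was measured at 32.7, 37.1 and 32.9 CPM in the siControl libraries and at 126, 122.8 and 118 CPM in the siMETTL3 libraries. The lowest siMETTL3 value was above 3 times the highest siControl value, and the log2 fold change was 1.83 (SE 0.068, edgeR FDR 7.74e-10), or 3.57-fold. Across the 18 alternative fits it went from 1.80 to 1.90, and it was 1.81 without siControl replicate 3. The CDH13 span overlaps 8 GENCODE release 44 genes on the other strand, and the exons of its canonical transcript make up 0.671% of it. Because whole spans were counted without strand, CDH13 counts can include reads of those genes and of introns.

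CDH23, the cadherin that forms the upper part of the tip link of inner ear hair cells, rose from 5.98, 6.31 and 5.38 CPM to 7.78, 10.1 and 8.96 CPM (log2 fold change 0.60, edgeR FDR 0.00587), and its log2 fold change was 0.54 without siControl replicate 3. Its span overlaps VSIR, which lies on the other strand and was itself higher (log2 fold change 0.80, edgeR FDR 0.0233). VSIR had 20 to 90 counts per library where CDH23 had 81 to 219, and the counting did not use strand, so part of the CDH23 counts can be reads of VSIR. PCDH15, which forms the lower part of the tip link, fell and is described with the protocadherins. CDH26 rose from 2.60, 2.80 and 1.46 CPM to 4.47, 3.31 and 4.72 CPM (log2 fold change 0.83, edgeR FDR 0.0168). The call of CDH26 was lost without siMETTL3 replicate 1 (edgeR FDR 0.0682) and without siMETTL3 replicate 3 (edgeR FDR 0.0795). Its lowest library was siControl replicate 3, without which the log2 fold change shrank to 0.62 (edgeR FDR 0.0308).

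**Figure D2:**
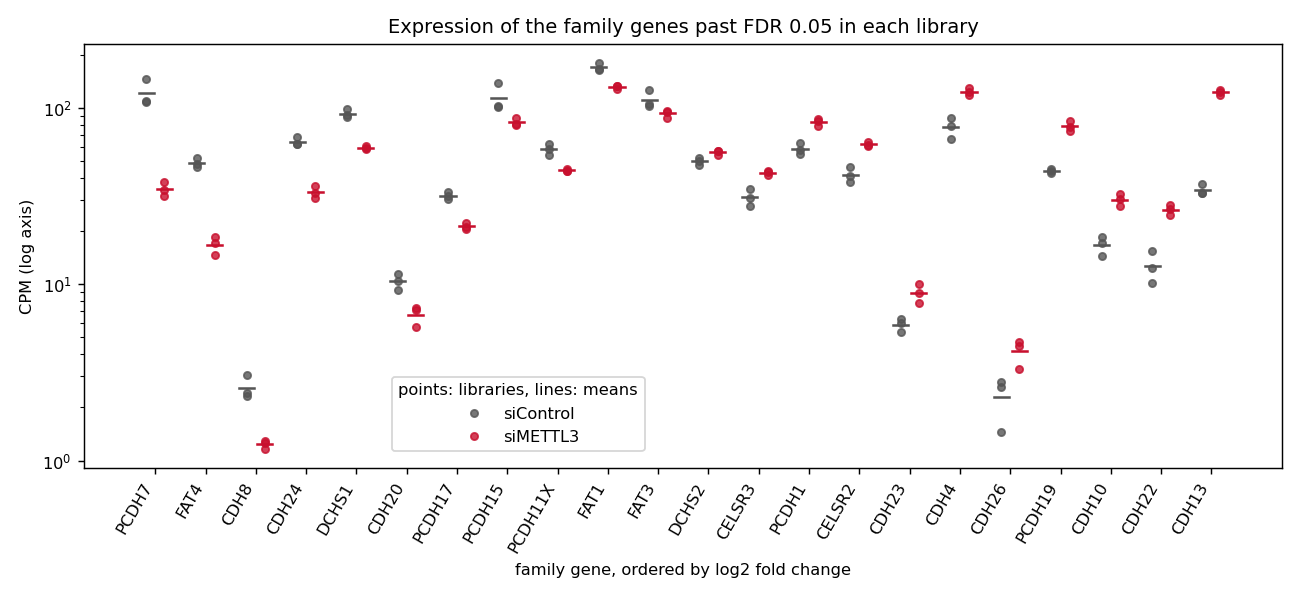
Normalised expression in CPM (log axis) of the 22 family genes with an edgeR FDR under 0.05, ordered from the largest fall to the largest rise; grey points are the 3 siControl libraries, red points the 3 siMETTL3 libraries and lines the group means. The groups do not overlap in any of these genes, and the gaps are widest for PCDH7, FAT4 and CDH13.

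PCDH7 (chromosome 4, 30720415 to 31146805, plus strand), a delta-1 protocadherin, had the largest fall of the family. It was measured at 109, 107 and 146 CPM in siControl and at 34.1, 31.7 and 37.7 CPM in siMETTL3. Even the lowest siControl library was well above the highest siMETTL3 library, while siControl replicate 3 exceeded the other controls. The log2 fold change was -1.80 (SE 0.12, edgeR FDR 3.06e-06), so that 28.7% of the control level remained. Without siControl replicate 3 it was -1.65.

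Of the other delta-1 protocadherins, PCDH11X fell, PCDH1 rose and PCDH9 did not pass. PCDH1, known as an epithelial receptor, rose from 63.0, 57.6 and 54.3 CPM to 79.2, 85.9 and 83.6 CPM (log2 fold change 0.51, SE 0.069, edgeR FDR 7.79e-05). Its log2 fold change was 0.46 without siControl replicate 3. PCDH11X fell from 54.1, 58.6 and 62.1 CPM to 45.1, 43.8 and 43.9 CPM (log2 fold change -0.39, edgeR FDR 0.000616), with -0.35 without siControl replicate 3. Its near-identical copy on the Y chromosome can take or block reads, so the PCDH11X level is uncertain. PCDH9 did not pass, with 23.6 ± 3.07 CPM in siControl and 22.2 ± 0.524 CPM in siMETTL3 (SD, n = 3, edgeR FDR 0.539). Its log2 fold change was -0.086, and 0.016 without siControl replicate 3.

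Within the delta-2 protocadherins, PCDH19 rose and PCDH17 fell. PCDH19 (chromosome X, 100291644 to 100410273, minus strand), which pairs with N-cadherin and is mutated in an epilepsy syndrome, went from 42.5, 44.8 and 43.6 CPM to 74.1, 77.9 and 84.3 CPM. The groups were far apart and the siControl values close together, and the log2 fold change was 0.85 (SE 0.068, edgeR FDR 7.85e-07). PCDH17 (chromosome 13, 57631744 to 57729311, plus strand), which recruits actin regulators to axon contacts, went from 30.2, 33.3 and 31.7 CPM to 22.2, 21.0 and 20.7 CPM, a log2 fold change of -0.57 (SE 0.083, edgeR FDR 0.000129). PCDH8, PCDH10 and PCDH18 did not pass (edgeR FDR 0.545, 0.230 and 0.440). PCDH10 had 5.57 ± 0.836 CPM in siControl and 4.61 ± 0.0467 CPM in siMETTL3, and the 95% interval of its log2 fold change was -0.63 to 0.091.

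Of the remaining protocadherins, PCDH15 (chromosome 10, 53802771 to 55627942, minus strand), the longest gene of the family, fell. It was measured at 101, 103 and 139 CPM in siControl and at 87.7, 79.3 and 81.3 CPM in siMETTL3, with siControl replicate 3 again the highest library. The log2 fold change was -0.46 (SE 0.11, edgeR FDR 0.00970) and shrank to -0.30 (edgeR FDR 0.000175) without siControl replicate 3. PCDH12, whose span overlaps RNF14, and PCDH20, whose span overlaps AL592490.1, did not pass (edgeR FDR 0.330 and 0.764).

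**Figure D3:**
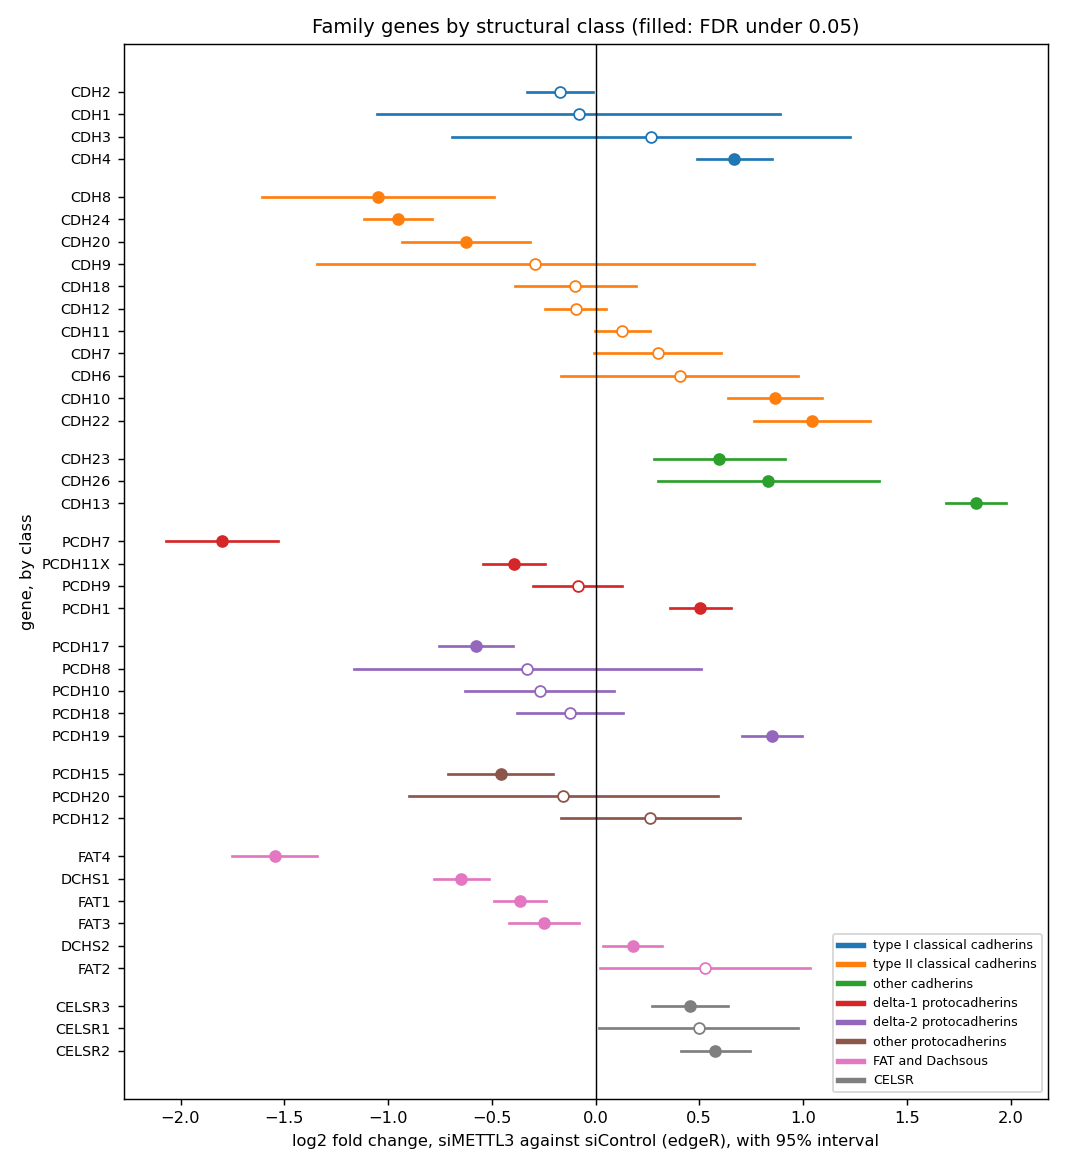
Log2 fold change of the 39 tested family genes (x axis, with 95% intervals) grouped by structural class; filled circles have an edgeR FDR under 0.05. Type II cadherins and delta protocadherins spread to both sides of 0, FAT1, FAT3, FAT4 and DCHS1 lie below 0, and the 3 CELSR genes lie above it.

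Among the FAT and Dachsous genes, 4 of 6 fell: FAT4, DCHS1, FAT1 and FAT3. That is 66.7%, against 19.2% of all tested genes lower, a difference not tested over so few genes. FAT4 and DCHS1 encode a mammalian receptor and ligand pair that acts in planar polarity and neuronal migration. FAT4 (chromosome 4, 125316399 to 125492932, plus strand) was measured at 51.8, 46.4 and 47.8 CPM in siControl and at 17.0, 14.6 and 18.5 CPM in siMETTL3. The controls were close together and every siMETTL3 library lay far below them, with a log2 fold change of -1.55 (SE 0.095, edgeR FDR 6.64e-08) and 34.3% of the control level left. DCHS1 (chromosome 11, 6621330 to 6655809, minus strand) was measured at 98.0, 90.9 and 89.1 CPM in siControl and at 58.8, 60.8 and 58.2 CPM in siMETTL3. Its log2 fold change was -0.65 (SE 0.062, edgeR FDR 3.88e-06). FAT4 and DCHS1 were thus lower together, FAT4 by the larger amount.

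FAT1, a regulator of actin at cell contacts, fell from 166, 163 and 179 CPM to 128, 133 and 133 CPM (log2 fold change -0.36, SE 0.057, edgeR FDR 0.000252). FAT3, which shapes the dendrites of retinal neurons, fell from 102, 105 and 125 CPM to 94.6, 88.0 and 96.3 CPM (log2 fold change -0.25, edgeR FDR 0.0214). The FAT3 call was lost without siMETTL3 replicate 1 (edgeR FDR 0.0613) or siMETTL3 replicate 2 (edgeR FDR 0.106), and its log2 fold change was -0.15 without siControl replicate 3. DCHS2 was higher by a small amount, from 47.2, 49.95 and 51.6 CPM to 57.0, 57.1 and 54.2 CPM (log2 fold change 0.18, edgeR FDR 0.0458). The DCHS2 call was lost in 11 of 18 alternative fits, among them each fit without 1 library other than siControl replicate 3, DESeq2 (adjusted p 0.0798) and the gene span offset (log2 fold change 0.089, edgeR FDR 0.303). FAT2 had 48 to 112 counts per library and a log2 fold change of 0.53 that did not pass (edgeR FDR 0.0949), although it did without siMETTL3 replicate 1 (log2 fold change 0.73, edgeR FDR 0.0306).

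Of the 3 CELSR genes, CELSR2 and CELSR3 rose and CELSR1 did not pass. The 66.7% that rose compare with 18.6% of all tested genes, a difference not tested over so few genes. CELSR2 (chromosome 1, 109249539 to 109275751, plus strand) went from 46.3, 40.7 and 37.7 CPM to 60.8, 61.8 and 63.9 CPM, a log2 fold change of 0.58 (SE 0.078, edgeR FDR 7.25e-05). CELSR3 (chromosome 3, 48636463 to 48662886, minus strand), which is needed for axon tracts of the forebrain, went from 30.9, 34.7 and 27.6 CPM to 41.6, 43.0 and 43.6 CPM, a log2 fold change of 0.46 (SE 0.086, edgeR FDR 0.000959). In both genes siControl replicate 3 was the lowest library and the siMETTL3 libraries were close together above all controls. Without siControl replicate 3 the log2 fold change was 0.51 for CELSR2 and 0.38 for CELSR3. CELSR1, the form of early neuroepithelium, was scarce at 3.15, 2.35 and 1.93 CPM in siControl and 3.35, 3.54 and 3.75 CPM in siMETTL3. Its groups did not overlap, yet its log2 fold change of 0.50 did not pass with all libraries (edgeR FDR 0.0955). Without siControl replicate 1 it passed (log2 fold change 0.72, edgeR FDR 0.0298).

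The 5 members that were not tested are cadherins known from other tissues. CDH5 (VE-cadherin of endothelium) had 0 to 4 counts per library, CDH15 (M-cadherin of muscle) 0 to 14, CDH16 (a kidney cadherin) 0 to 5 and CDH17 (an intestinal and liver cadherin) 2 to 17. CDH19, a cadherin of Schwann cell precursors, had 4 counts in siControl replicate 2 and 0 in the other libraries. A count of 0 in these libraries shows only that the gene was not detected at this depth.

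Per kilobase of the canonical GENCODE transcript, and averaged over all libraries, CDH2 had the highest level of the family at 65.6 CPM per kb and CDH11 the next at 48.5. CDH12 followed at 19.5, and CDH4, PCDH1 and CDH24 came next, with PCDH1 at 14.7 and CDH24 at 14.3 CPM per kb. This order shifted between the groups: CDH13 stood at 4.34 CPM per kb in siControl and 15.5 in siMETTL3, and PCDH7 at 13.7 and 3.93. Because the tables count reads over the whole gene, introns included, the level can also be set against the span. CDH24 then stood above CDH2, at 4.65 against 1.17 CPM per kb of span over all libraries, so the ranking depends on which length is used.

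Some members that share a chromosome are given together here, with no test of position. On chromosome 4, PCDH7, FAT4 and FAT1 fell, DCHS2 was higher, and PCDH10 and PCDH18 did not pass. CDH9, CDH10, CDH12 and CDH18 lie between 19471296 and 27121150 on chromosome 5, where CDH10 alone passed. On chromosome 16, CDH8 fell, CDH13 rose, CDH1, CDH3 and CDH11 did not pass, and CDH5, CDH15 and CDH16 were not tested. On chromosome 18, CDH20 fell, CDH2 and CDH7 did not pass, and CDH19 was not tested. On chromosome 13, PCDH17 fell, and PCDH8, PCDH9 and PCDH20 did not pass, all with negative values. The adjacent PCDH1 and PCDH12 on chromosome 5 had log2 fold changes of 0.51 and 0.26, of which only PCDH1 passed. On the X chromosome PCDH11X fell and PCDH19 rose. All 3 members on chromosome 20 (CDH4, CDH22 and CDH26) rose, where 28.5% of the 417 tested genes of that chromosome were higher and 13.2% lower. These shares were 10.3% and 26.8% on chromosome 4, and 16.6% and 25.6% on chromosome 5. They were 19.9% and 16.7% on chromosome 16, 18.6% and 17.6% on chromosome 18, and 11.8% and 21% on the X chromosome. On chromosome 13 they were 11.2% and 20.9%, and 146 of its 258 tested genes had negative values.

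Family genes are long: the median span was 140.1 kb over the 39 tested members and 35.4 kb over the 14575 tested genes with a canonical transcript. Length went with the fold change across all genes, weakly, with a median log2 fold change of -0.13 for genes under 10 kb and 0.021 for genes of at least 300 kb. Of the 11 members of at least 300 kb, 3 rose, 5 fell and 3 did not pass. Among all 810 tested genes of that length 45.4% passed, 26.8% higher and 18.6% lower. Spearman's rho between span and log2 fold change was -0.064 over the 39 members and 0.19 over all genes, given as a description, since genes of 1 library share its depth. With the span offset PCDH7, FAT4 and CDH13 had log2 fold changes of -1.86, -1.65 and 1.80.

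**Figure D4:**
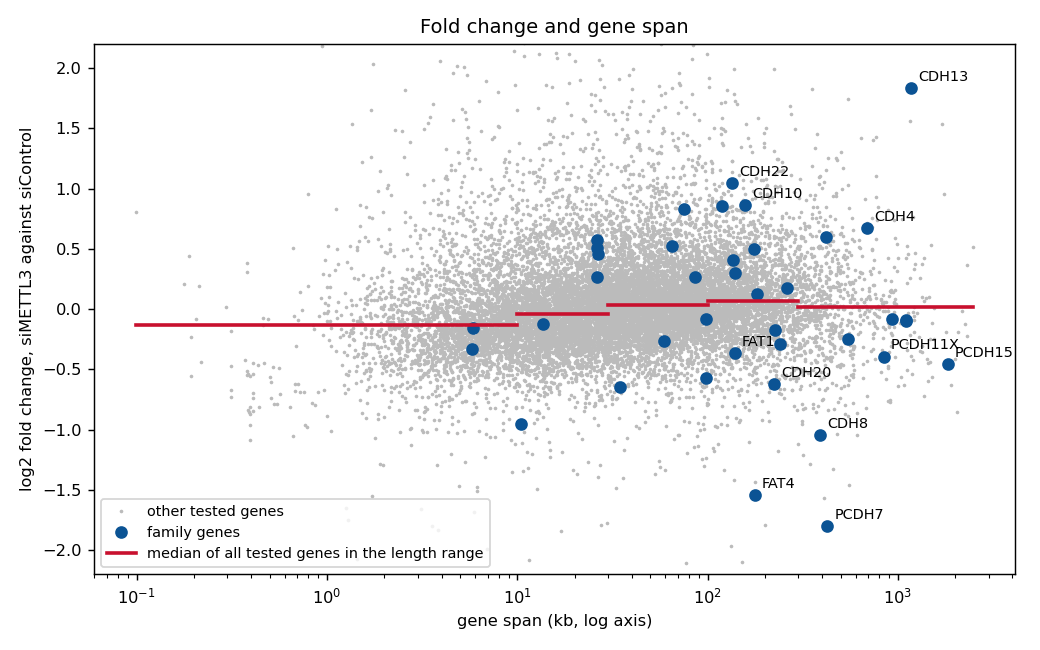
Log2 fold change (siMETTL3 against siControl, y axis) against gene span in kb (log x axis) for all tested genes in grey and the 39 tested family genes in blue; red lines are medians of all tested genes within a length range, and 47 other genes lie beyond the y axis. Family genes of at least 300 kb lie on both sides of the red line, from PCDH7 at -1.80 to CDH13 at 1.83.

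Transcript features were set beside the fold changes as a description. The canonical transcripts of tested members had a median of 1.21 GGACT motifs per kb, letters that METTL3 complexes favour, against 0.929 over all tested genes. Among fallers DCHS1 had 2.24 per kb, FAT4 1.57, PCDH7 1.25, FAT3 0.872 and PCDH17 0.843. Among risers CDH22 had 2.31, CDH13 1.02, PCDH19 0.718 and CDH10 0.582. Densities above and below the member median thus occurred among both risers and fallers. Spearman's rho between GGACT density and log2 fold change was -0.035 over the 39 members and 0.072 over 14575 genes. For transcript length it was -0.052 over the members, for the longest internal exon -0.061 over the 38 members that have an internal exon, and for GC content 0.21, with 0.18 for GC content over all genes. No m6A measurement was used here, so a motif is not a modified site.

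The other genes of the pathway are read against the 37.8% of all tested genes that passed, 18.6% higher and 19.2% lower. Of 14 catenins and cytoplasmic partners, 4 rose and 1 fell (35.7%), a share near that of all genes, with a median log2 fold change of 0.093. CTNNA1 (alpha-E-catenin, the actin link of cadherin junctions) rose from 67.9, 70.1 and 73.2 CPM to 111, 114 and 115 CPM (log2 fold change 0.69, edgeR FDR 1.34e-06). VCL (vinculin) and ARVCF (a p120-like catenin) rose by 0.38 and 0.73 on the log2 scale (edgeR FDR 0.000482 and 0.00127). CTNNB1 (beta-catenin) and CTNNA2 (the neural alpha-catenin) did not pass, with log2 fold changes of 0.021 and 0.098. All 5 overlap another gene of the tables, so their counts can include its reads.

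Of 15 other cadherin-superfamily genes 9 were tested, of which 3 rose and 2 fell (55.6%, against 37.8% of all genes), with a median of 0.070. CLSTN2, a postsynaptic calsyntenin, rose from 211, 199 and 249 CPM to 606, 566 and 588 CPM (log2 fold change 1.42, edgeR FDR 2.72e-08). CLSTN1 rose by 0.36 and the desmosomal cadherin DSC2 fell by 0.46 on the log2 scale. Among 9 proteases that process cadherins, 2 rose and 2 fell (44.4%, against 37.8%), with a median of -0.093: PCSK5, a proprotein convertase, rose by 1.25, and NCSTN and APH1A, subunits of gamma-secretase, fell by 0.49 and 0.25 on the log2 scale. CLSTN1 and APH1A overlap PIK3CD and C1orf54.

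In the list of planar polarity partners, 3 of 18 rose and 5 fell (44.4%, against 37.8% of all genes), with a median of 0.079. PRICKLE2 rose from 48.5, 62.5 and 54.0 CPM to 122.5, 126 and 127 CPM (log2 fold change 1.19, edgeR FDR 2.03e-07), and PRICKLE1, a related polarity protein, fell by 0.49 on the log2 scale (edgeR FDR 0.000299). RERE, an atrophin family member, rose by 0.32. Of 20 tested genes of the Hippo pathway, a growth control pathway downstream of Fat in flies, 2 rose and 3 fell (25%, below the 37.8% of all genes), with a median of -0.034. MOB1B and TEAD2 fell by 0.49 and 0.67, and WWC1 rose by 0.39 on the log2 scale. PRICKLE1, MOB1B and TEAD2 also overlap other genes. Of 7 tested transcription factors known to repress CDH1, 3 fell and the others did not pass, with a median of -0.19. That is 42.9% passing, against 37.8% of all genes, and 42.9% lower, against 19.2%. For none of these lists was the difference from the share of all genes tested. TWIST1 fell by 0.29 (edgeR FDR 0.00239), whereas the calls of TCF4 and ZEB2 (edgeR FDR 0.0390 and 0.0498) were lost in 7 and 12 of 18 alternative fits.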

How the data were processed

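The authors deposited raw read counts per gene, 1 table per library. Per the file headers they were made with featureCounts 1.5.3 on a GENCODE release 33 protein-only annotation, over whole gene spans (introns included), without strand, and with reads over several genes counted for each. The submitters' processing notes also name Trimmomatic 0.36, HISAT2 2.1.0 and build GRCh38. Of the 39 tested members, 4 overlap another gene of the tables and 24 a GENCODE release 44 gene on the other strand.

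Here, genes were filtered (filterByExpr), scaled (TMM) and tested on all 6 libraries with edgeR 4.0.16 (R 4.3.3), by the robust quasi-likelihood F-test without covariates. FDRs are Benjamini-Hochberg values over 15311 genes, with a threshold of 0.05. CPM use TMM-scaled library sizes. SE is the absolute log2 fold change over the square root of F. 95% intervals use the test's degrees of freedom. The fit was tested on simulated data. Members, classes, lists and tests were chosen with earlier results of these data known. All members were to be named, with up to 3 called genes of each list; CTNNB1 and CTNNA2 were added after their values were seen. Transcripts are GENCODE release 44 canonical ones, start-site windows are from RefSeq. Whether replicate numbers pair the libraries is not known. The correlation of deviations was 0.040, 0.049 and 0.067 for the same number, and lower, -0.064 to 0.026, for different numbers. Alternatives used DESeq2 1.42.0, limma 3.58.1, other scalings, filters and offsets.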

Additional observations from a re-analysis of the deposited data

How the results depend on the processing

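Across 18 alternative fits the family held 9 to 12 higher and 10 to 12 lower members. When genes with an overlapping neighbour were dropped, 9518 genes were left to test, of which 1852 were higher and 1898 lower. Leaving out each library in turn gave 2091 to 3178 higher and 2119 to 3216 lower genes. The family median, -0.086 with all libraries, has no stable sign: it was 0.016 without a filter on low counts (44 members, cause not tested), and -0.15 to 0.077 when 1 library was left out. In those fits, 5 members that never passed changed sign: PCDH20 (-0.37 to 0.040), CDH18 (-0.20 to 0.056), CDH9 (-0.56 to 0.30), PCDH9 (-0.16 to 0.016) and CDH1 (-0.57 to 0.25).

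A replicate block gave 6166 called genes and 22 called members. Of these members 21 were the same, CDH2 entered (log2 fold change -0.17, edgeR FDR 0.0384) and DCHS2 left (0.18, edgeR FDR 0.0506); with the block and the span offset together they had -0.26 and 0.090. Whether the replicate numbers pair the libraries is not known. DESeq2 called 21 members, all among the 22 of edgeR, and limma-voom called the same 22. The 95% intervals of CDH1, CDH3, CDH6, CDH8, CDH9, CDH26, FAT2, PCDH8 and PCDH20 span more than 1 log2 unit.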
